A study of Mus musculus with 19 samples.

Results

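Within lung adenocarcinoma (LUAD) organoids, ribosome footprints were set against RNA, gene by gene, to describe which messages carried many footprints for their RNA and which carried few. The comparison used the 4 footprint libraries and the 4 RNA libraries of the tumour organoids, 8 of the 19 samples in the series, and did not use the alveolar cultures. The organoids were mouse, of strain C57BL/6, and were made from lung tumours. The series text speaks of 3 tumour-derived organoids, so the 4 libraries of an assay cannot all be assigned to separate tumours, and p-values measure the spread between these libraries, which may in part be technical. All cultures had been plated for 48 h and received 100 µM cycloheximide, an inhibitor of translation elongation, for 5 min, so no untreated culture stands beside these values. The genotype is given only as KP in the titles of the tumour ORF lists, and is not spelled out. Footprints came from RiboLace, a method that pulls down actively translating ribosomes. The labels name one small RNA kit for both assays, so how the RNA libraries were prepared is not given. A gene was a member if at least one of its transcripts was named in the deposited lists of open reading frames (ORFs): 7261 genes qualified and 6984 passed the filter on low counts. A gene's value covers only its listed transcripts.

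A ribosome shields a short stretch of the mRNA it is reading, and sequencing those stretches counts ribosomes on each message. Dividing footprints by RNA gives a relative measure of how densely a message is occupied. Occupancy is set mostly by initiation: short upstream ORFs, pyrimidine-rich mRNA starts and protein-binding hairpins are known to hold ribosomes back on particular messages, among them those of ATF4, ribosomal proteins and ferritin. In the sentences that follow, the log2 ratio is the base-2 logarithm of footprint CPM over RNA CPM, where CPM is a gene's count scaled to a common normalised library total. It ranks genes within these organoids and is not a rate: at 0 a gene takes an equal normalised share of both assays.

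The footprint libraries held 4803129 to 14249573 estimated counts and the RNA libraries 27181932 to 33203742, of which 66.4% to 69.3% fell on listed transcripts. Footprint library 1 was the shallow one. Libraries 1 and 2 stood apart from libraries 3 and 4 in both assays, along a second principal component with 10.1% of the variance, against 84.1% on the first, which separated the assays. The pairs are called library sets here, since no label says what they share, and values that turn on them are given for each set. Epithelial markers were abundant: 9 of 9 paired markers were tested, with a summed level of 11500 to 12400 CPM in footprints and 12700 to 15500 CPM in RNA. Of 7 paired alveolar type 2 markers 4 were tested. Over all 4 RNA libraries Slc34a2 had 0 counts, Nkx2-1 had 9 and Sftpb 26, while Sftpd had 8731, Lpcat1 8007, Abca3 3096 and Etv5 1537. No listed fibroblast, endothelial or club, basal and ciliated marker was paired, and of the 18 macrophage and leukocyte markers only Cd14 (63.1 to 73.8 CPM of footprints) and Mrc1 (20.1 to 37.6 CPM) were. Pairing rests on the ORF lists and left out Gapdh too, so the level of an unpaired marker is not known here. Trp53 had 7, 0, 9 and 8 footprint counts and 0, 0, 0 and 72 RNA counts in libraries 1 to 4, too few to place it.

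Footprints and RNA differed for a large part of the genes. With edgeR's quasi-likelihood test (adjusted p below 0.05 and at least 2-fold), 1712 genes had high footprints per RNA, 24.5% of those tested, and 1579 had low footprints per RNA, 22.6%. The median gene had a log2 ratio of -0.05, and the middle part of the distribution ran from -0.94 at the lower quartile to 1.03 at the upper. Among the 3291 called genes, 3197 had no overlap between their 4 footprint and 4 RNA values, as did 65.4% of all genes tested. In 3290 of the called genes the direction was the same in each library set, with a median difference of 0.36 between the sets. Scaling the libraries by their totals over all transcripts in place of TMM raised the median of all genes by 0.17, so ratios within that distance of 0 have no settled sign.

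Long transcripts carried more footprints per RNA than short ones, and this was the widest pattern in the data. Across the 6984 genes the Spearman correlation of the log2 ratio with transcript length was 0.61, and it was 0.62 in libraries 1 and 2 and 0.58 in libraries 3 and 4. These are values across genes that share the same libraries. Genes were then put into 10 equal classes by length. In the class of shortest transcripts, 312 to 1178 bases, the median log2 ratio was -0.96, with 89 genes high and 336 low. In the class of longest transcripts, 6333 to 27908 bases, it was 2.34, with 579 high and 10 low. The RNA side varied more with length than the footprint side: median RNA was 112 CPM in the shortest class and 15 CPM in the longest, against 53.3 and 73.8 CPM for footprints. RNA CPM fell by 0.71 on the log2 scale for each added unit of log2 length, while footprint CPM rose by 0.15. Coding length gave a correlation of 0.57. What the length pattern comes from was not tested.

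**Figure D1:**
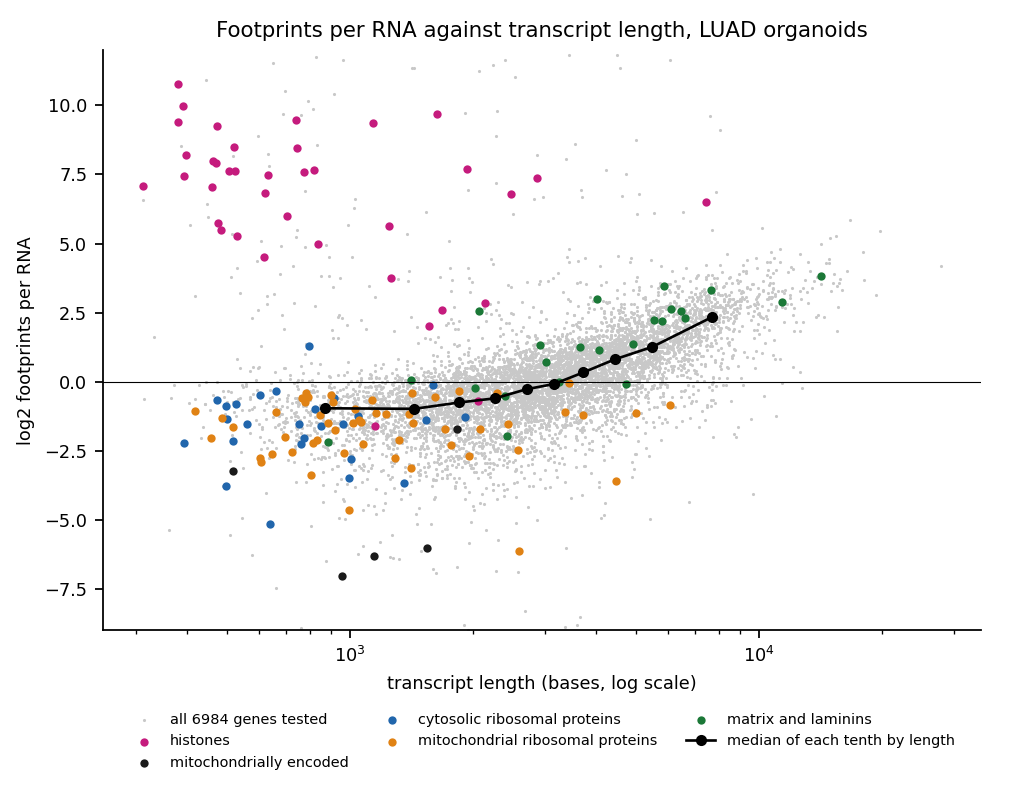
Each grey point is 1 gene, with its transcript length in bases on a log axis and its log2 footprints per RNA on the vertical axis; colours mark 5 gene lists and the black line joins the medians of 10 equal length classes, each placed at its median length, from -0.96 to 2.34. All histone genes but H1f0 and Hist1h2bc lie above the line, all 5 mitochondrially encoded genes lie below it, and 22 genes beyond the vertical range are not drawn.

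Because length moves with so much else, a second value is given beside the first: the log2 ratio after a smooth trend on transcript length was taken off. This was chosen after the data had been seen. With it, 660 genes were high (9.45%) and 1356 low (19.4%). The share of calls on the high side went from 52.0% to 32.7%, so the balance of high and low depends on whether that trend is kept. It was 63.4% with limma on log2(TPM + 1), which changes the test, the scaling and the length correction together, and 59.2% with scaling by totals over all transcripts. Of the 1712 high genes 510 stayed high with the trend removed and 36 became low. Of the 1579 low genes 977 stayed low and 0 became high.

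Histones headed the high side among well-counted genes, meaning called genes that averaged 20 or more counts in each assay and 100 or more in the higher one, without overlap between the assays (predicted genes left out). The list held 37 replication-dependent histones, the DNA-packaging proteins made in S phase from short mRNAs that end in a stem-loop rather than a poly(A) tail, and the replication-independent linker histone gene H1f0. Of the 38 genes 36 were high (94.7%, against 24.5% of all genes) and 1 was low, with a median log2 ratio of 7.41. Footprint and RNA values did not overlap in any of the 38, against 65.4% of all genes without overlap. Some members had almost no RNA, with a lowest mean of 0.072 CPM among H1 genes and 0.266 CPM among H2B genes. Members with so little RNA passed the low-count filter through their footprints, so for them a high value without overlap follows from that filter. Summed over the list, footprints came to between 6250 and 15600 CPM in a library and RNA to between 1260 and 1400 CPM. Most of that RNA came from H1f0 (mean 694 CPM) and Hist1h2bc (453 CPM). Hist1h4d, an H4 gene, had 667, 601, 1330 and 1270 CPM of footprints in libraries 1 to 4. Its RNA was 1.79, 0.224, 1.96 and 2.01 CPM. All 4 footprint values lay far above the highest RNA value, and the log2 ratio was 9.35 ± 0.65 (SE; edgeR adjusted p = 4.24e-06). Hist2h2bb, an H2B gene, had footprints of 375, 349, 1060 and 1070 CPM against RNA of 0.762, 0.449, 2.65 and 0.473 CPM, a log2 ratio of 9.39 ± 0.78.

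The pattern ran through all 5 histone classes. The median was 7.70 over the 5 H1 genes, 6.71 over the 6 H2A genes, 7.03 over the 11 H2B genes, 5.45 over the 6 H3 genes and 7.93 over the 9 H4 genes. Libraries 3 and 4 held more histone footprints than libraries 1 and 2, and the median ratio was 6.86 in libraries 1 and 2 and 7.54 in libraries 3 and 4. H1f0 was not called: its footprints were 433, 357, 458 and 477 CPM, its RNA was 727, 731, 657 and 660 CPM, and the log2 ratio was -0.69 ± 0.13. Hist1h2bc was low, with 96.4, 65.0, 240 and 201 CPM of footprints against 494, 478, 461 and 378 CPM of RNA (log2 ratio -1.59 ± 0.38). Taking off the length trend left 36 high (94.7%, against 9.45% of all genes) and 0 low, with a median of 8.25. Many histone genes are near copies of each other, so the split of counts between them is uncertain, while their sum does not depend on that split within the list. Whether the RNA libraries were selected by poly(A) tail is not given, and its part in these ratios was not tested.

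The well-counted genes with the largest ratios outside the histones were of different kinds. Tmem38b (GRCm38.p6 chr4:53825988-53862019), which encodes a cation channel of the endoplasmic reticulum, had footprints of 5360, 11900, 5640 and 8940 CPM against RNA of 39.1, 17.4, 35.9 and 15 CPM, a log2 ratio of 8.21 ± 0.52. Mettl26 (chr17:25875500-25877163) had 12300, 4710, 3040 and 2560 CPM of footprints against 68.9, 67.8, 82.7 and 73.6 CPM of RNA, a log2 ratio of 6.27 ± 0.57. The P-sites, which are footprints placed at the codon being read, did not follow these counts. In the first tumour ORF list the annotated ORF of Tmem38b held 19 P-sites and that of Mettl26 held 50. Per 100 mean footprint counts this was 0.0265 and 0.135, the lowest and the next lowest of 4549 genes, where the median was 35.9. For Hist1h4d it was 8.06, also under the 5th percentile of 10.4, and for Hist2h2bb 16.4. Other genes described further on lay under that percentile too, among them Rps15 (1.73), Eef1a1 (3.13) and S100a11 (3.89). The P-sites were listed for 3 tumour samples that no label ties to single count libraries, so the 2 readouts were compared over genes only. What the many footprints of Tmem38b and Mettl26 are was not tested. A mismatch of the opposite kind occurred among low genes described further on. Sprr1a had 1170 P-sites per 100 mean footprint counts, Ier3 706, Eloc 304, Ccnd3 280, Srm 225 and Mt2 169, all above the 95th percentile of 122. Their P-sites do not follow their low footprint counts, and the reason was not tested.

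Beyond these, most of the highest ratios among well-counted genes belonged to long messages. Rnf213, which encodes a giant ubiquitin ligase on a transcript of 16716 bases, had 261, 260, 160 and 160 CPM of footprints against 5.29, 4.85, 1.55 and 2.60 CPM of RNA (log2 ratio 5.86 ± 0.43). Kmt2d, a histone methyltransferase gene (19805 bases), stood at 5.44 ± 0.47, Lpp, a focal adhesion gene (15459 bases), at 5.29 ± 0.30, Ash1l, another methyltransferase gene (11268 bases), at 4.8 ± 0.36 and Mdn1, a ribosome assembly ATPase gene (17970 bases), at 4.68 ± 0.24. With the length trend removed Rnf213 stood at 1.56, Ash1l at 1.49 and Lpp at 1.18, all still high, while Kmt2d (0.71) and Mdn1 (0.20) were no longer called. Copz1, a coatomer subunit gene, was an exception with a transcript of 874 bases: it had 63.2, 61.3, 108 and 118 CPM of footprints against 3.14, 2.51, 1.27 and 4.5 CPM of RNA (4.94 ± 0.42, and 5.93 with the trend removed). Hipk2, a kinase gene, stood at 5.49 ± 0.84 and at 3.16 with the trend removed, with footprints of 153 and 133 CPM in libraries 1 and 2 and 26.2 and 23.2 CPM in libraries 3 and 4. Dpysl2, a cytoskeletal regulator gene, changed less: 208, 192, 258 and 261 CPM of footprints stood against 6.46, 14.5, 9.56 and 8.46 CPM of RNA, a log2 ratio of 4.55 ± 0.27 and 3.61 with the trend removed.

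At the other end stood the genes encoded in mitochondrial DNA, which are read by the ribosomes of the organelle and not by those of the cytosol. All 5 tested were low, with a median log2 ratio of -6.02. mt-Co1, a cytochrome oxidase subunit gene, had 231, 292, 63.3 and 67.9 CPM of footprints against 7680, 8190, 15100 and 11300 CPM of RNA (log2 ratio -6.02 ± 0.63). mt-Nd1, a complex I subunit gene, had 65.4, 93.5, 19 and 21.6 CPM against 5460, 5870, 8130 and 6500 CPM (-7.03 ± 0.62). Every footprint value lay far below every RNA value, and the footprints of libraries 3 and 4 lay below those of libraries 1 and 2. mt-Cytb stood at -6.31 ± 0.64 and mt-Nd6, on the other strand of the genome, at -3.22 ± 0.43. mt-Nd5 depended on the set: its log2 ratio was -0.18 in libraries 1 and 2 and -3.04 in libraries 3 and 4, and its footprint and RNA ranges overlapped. In the fit with the replicate number as a block it was not called, at -1.64 (edgeR adjusted p = 0.0565). The list's median was -4.90 in libraries 1 and 2 and -7.63 in libraries 3 and 4, and with the length trend removed 4 of the 5 stayed low.

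**Figure D2:**
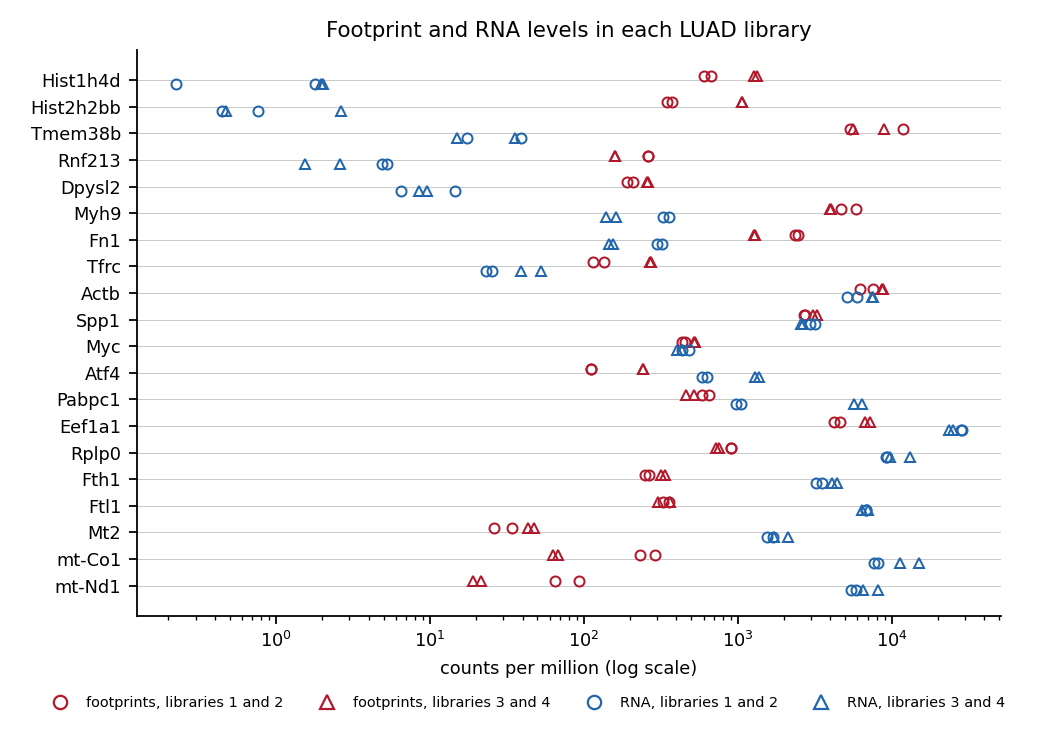
CPM on a log axis for 20 genes, with 1 symbol per library: red for footprints, blue for RNA, circles for libraries 1 and 2 and triangles for libraries 3 and 4. Footprints lie to the right of RNA in the upper 8 genes, overlap it in Actb, Spp1 and Myc, and lie to the left in the genes from Atf4 down to mt-Nd1.

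Among well-counted nuclear genes the lowest had transcripts shorter than the median of 2920 bases. Genes with fewer footprints, which this rule leaves out, reached lower fitted values. Mt2, which encodes a metal-binding metallothionein (chr8:94172618-94173567), had footprints of 34.3, 26.0, 47.2 and 43.4 CPM against RNA of 1550, 1700, 2110 and 1720 CPM, a log2 ratio of -5.55 ± 0.25. Sprr1a, an envelope protein of squamous cells, had 3.02, 3.59, 6.24 and 5.91 CPM against 158, 183, 204 and 180 CPM (-5.23 ± 0.25). In both genes every RNA value lay far above every footprint value, though their P-sites were many for these footprints, as given above. The other low genes named by the same rule were Polr2c, an RNA polymerase II subunit gene (-5.14), the ribosomal protein gene Rps15a (-5.13), the cyclin gene Ccnd3 (-5.08), Ypel3 (-4.95), the mitochondrial protein gene Chchd10 (-4.92), the cytokine gene Mif (-4.92), Spag7 (-4.77), Mrps24 (-4.65), Cox7a2l (-4.63) and the elongin gene Eloc (-4.63). All 10 stayed low with the length trend removed, between -4.52 for Ccnd3 and -3.69 for Cox7a2l. Ypel3 rested on few footprints, 0, 6.26, 2.85 and 0 CPM.

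Ribosomal protein messages were mostly low. They belong to the TOP class, whose mRNAs begin with a C and a run of pyrimidines and whose translation follows growth signals. Of the 26 tested, 17 were low (65.4%, against 22.6% of all genes) and 1 was high, with a median log2 ratio of -1.46. Their summed level was 15300 to 29500 CPM in footprints and 72300 to 97700 CPM in RNA. Rplp0, a protein of the ribosomal stalk, had 906, 900, 757 and 722 CPM of footprints against 9200, 9310, 13100 and 9770 CPM of RNA (log2 ratio -3.65 ± 0.20). Its partner Rplp1 stood at -3.79 ± 0.24 and the small-subunit gene Rps2 at -3.50 ± 0.36. Closer to the bulk were Rpl8 (-1.59), Rpl4 (-1.38) and Rps15 (-1.35). These genes are short, with a median transcript of 768 bases. With the length trend removed 8 were low (30.8%, against 19.4% of all genes), 1 was high and the median was -0.54. Rps15a (-4.08), Rplp0 (-2.80), Rplp1 (-2.69), Rps2 (-2.54), Rpl14 (-1.83) and Rps21 (-1.07) were among those 8, while Rpl4 (-0.61), Rpl8 (-0.59) and Rps15 (-0.26) were not.

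The windows around the RefSeq transcription start of 7 genes from the lists of ribosomal proteins and other TOP messages are shown because the TOP run is the sequence feature that defines this class. Each runs from 10 bases before the start to 20 after it, on the gene's strand, from the RefSeq promoter table (GRCm38.p6). Capitals mark the C at the start and the unbroken C or T run that follows it.
Rps15a (chr7:118116128-118116157, minus strand): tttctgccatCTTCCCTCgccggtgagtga
Rpl14 (chr9:120571507-120571536, plus strand): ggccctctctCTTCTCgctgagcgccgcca
Rps21 (chr2:180257369-180257398, plus strand): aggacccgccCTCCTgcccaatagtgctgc
Eif3f (chr7:108934405-108934434, plus strand): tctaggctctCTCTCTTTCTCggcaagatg
Rack1 (chr11:48800350-48800379, plus strand): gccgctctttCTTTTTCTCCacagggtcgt
Rps10 (chr17:27635225-27635254, minus strand): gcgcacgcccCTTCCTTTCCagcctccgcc
Nap1l1 (chr10:111473217-111473246, plus strand): gctctcgggtCTTTTTTagcgccatctgct
A C followed by at least 4 C or T was looked for at the annotated start base only, on the gene's strand. It was found in 9 of the 31 ribosomal protein and other TOP genes with a promoter entry (29.0%), of which Rplp2 and Rps18, both at -1.53, are not shown, in 160 of 5525 tested genes with one (2.90%) and in 823 of all 32851 entries (2.51%). Among high genes the share was 2.13% and among low genes 3.49%. The length of the run did not order the ratios of the 7 genes shown: Rps15a with 8 pyrimidines stood at -5.13, Rack1 with 10 at -1.69, Rps10 with 10 at -1.0 and not called, and Nap1l1 with 7 at 0.25 and not called. An annotated start need not be the start used in these cells.

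Other TOP messages spread more widely. Of 18 tested, 9 were low and 0 high, with a median of -0.92. Of all genes 22.6% were low and 24.5% high. With the length trend removed 3 were low (16.7%, against 19.4% of all genes) and 1 high (5.56%, against 9.45%). The low share of this list was then no longer above that of all genes. Eef1a1, the elongation factor that brings tRNA to the ribosome, had 4630, 4250, 7270 and 6760 CPM of footprints against 28100, 28600, 25000 and 23500 CPM of RNA (log2 ratio -2.20 ± 0.23). Eef2, which moves the ribosome along, had nearly equal shares: 5040, 4550, 4910 and 5010 CPM against 5910, 5940, 5150 and 4950 CPM (-0.17 ± 0.15, edgeR adjusted p = 0.325). Eif3f, an initiation factor subunit gene, stood at -3.65 ± 0.24 and Rack1, a ribosome-bound scaffold gene, at -1.69 ± 0.24, with -0.87 and no call for Rack1 once the trend was removed. Pabpc1, the poly(A)-binding protein gene, followed the library sets in its RNA and not in its footprints. Its footprints were 582, 653, 517 and 460 CPM and its RNA 1050, 982, 6410 and 5710 CPM, so the log2 ratio was -0.70 in libraries 1 and 2 and -3.61 in libraries 3 and 4.

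Among 28 initiation factor genes 4 were high and 4 low, 14.3% each against 24.5% and 22.6% of all genes. Eif4g1, the scaffold of the cap-binding complex, stood at 2.10 ± 0.19 and Eif3a, the largest eIF3 subunit gene, at 1.68 ± 0.20. Eif4ebp1, the inhibitor of cap binding, stood at -1.70 ± 0.26 and Eif2b1, part of the eIF2 exchange factor, at -2.27 ± 0.38. With the length trend removed Eif4g1 (0.69) and Eif3a (0.41) were not called, and Eif4ebp1 (-1.15) and Eif2b1 (-1.73) stayed low. The tRNA synthetases, which charge tRNAs with amino acids, had no low member: of 23 genes 5 were high (21.7%, against 24.5% of all genes) and 0 low. With the trend removed 6 were high (26.1%, against 9.45%) and 0 low. Lars had 220, 257, 377 and 375 CPM of footprints against 75.6, 83.0, 77.2 and 81.2 CPM of RNA (log2 ratio 1.96 ± 0.19, 1.31 with the trend removed). Dars stood at 1.22 ± 0.12 and 1.67. Eprs (1.67 ± 0.19) and Aars (1.33 ± 0.19) were not called with the trend removed, at 0.51 and -0.24. Nars stood at 1.02 ± 0.23 and 1.16, and its call was lost with the replicate number as a block, at 0.99 (edgeR adjusted p = 7.59e-05), and without footprint library 3 (0.90) or 4 (0.89) or RNA library 1 (0.95) or 2 (0.94).

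Most genes for the mitochondrial ribosome were low as counted. Of 54 tested nuclear genes for its proteins 40 were low and 0 high, a share of 74.1% low against 22.6% of all genes, and the median log2 ratio was -1.49. The large subunit had 27 of 36 low and the small subunit 13 of 18. Mrpl21 had 6.59, 12.6, 16.7 and 22.3 CPM of footprints against 141, 125, 175 and 180 CPM of RNA (-3.38 ± 0.33), and Mrps21 had 92.0, 89.3, 92.5 and 114 CPM against 195, 203, 280 and 294 CPM (-1.32 ± 0.17, and -0.23 with the trend removed, not called). After removal of the length trend 25 of the 54 were low and 0 high, 46.3% against 19.4% of all genes, with a median of -0.84. The nuclear genes of oxidative phosphorylation differed from them in this respect. As counted, 29 of 62 were low (46.8%) and 1 was high (median -0.90). With the trend removed 11 were low (17.7%) and 6 high (9.68%, against 9.45% of all genes), and the median was 0.05. Cox6a1, a cytochrome oxidase subunit gene, went from -1.85 ± 0.22 to -0.78 and was no longer called, and Atp5j2, an ATP synthase subunit gene, went from 0.48 ± 0.22, not called, to 1.56, high. Ndufs1, the long core subunit gene of complex I, was the high one in the first count, at 1.10 ± 0.17, and was not called without footprint library 4 (1.0).

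**Figure D3:**
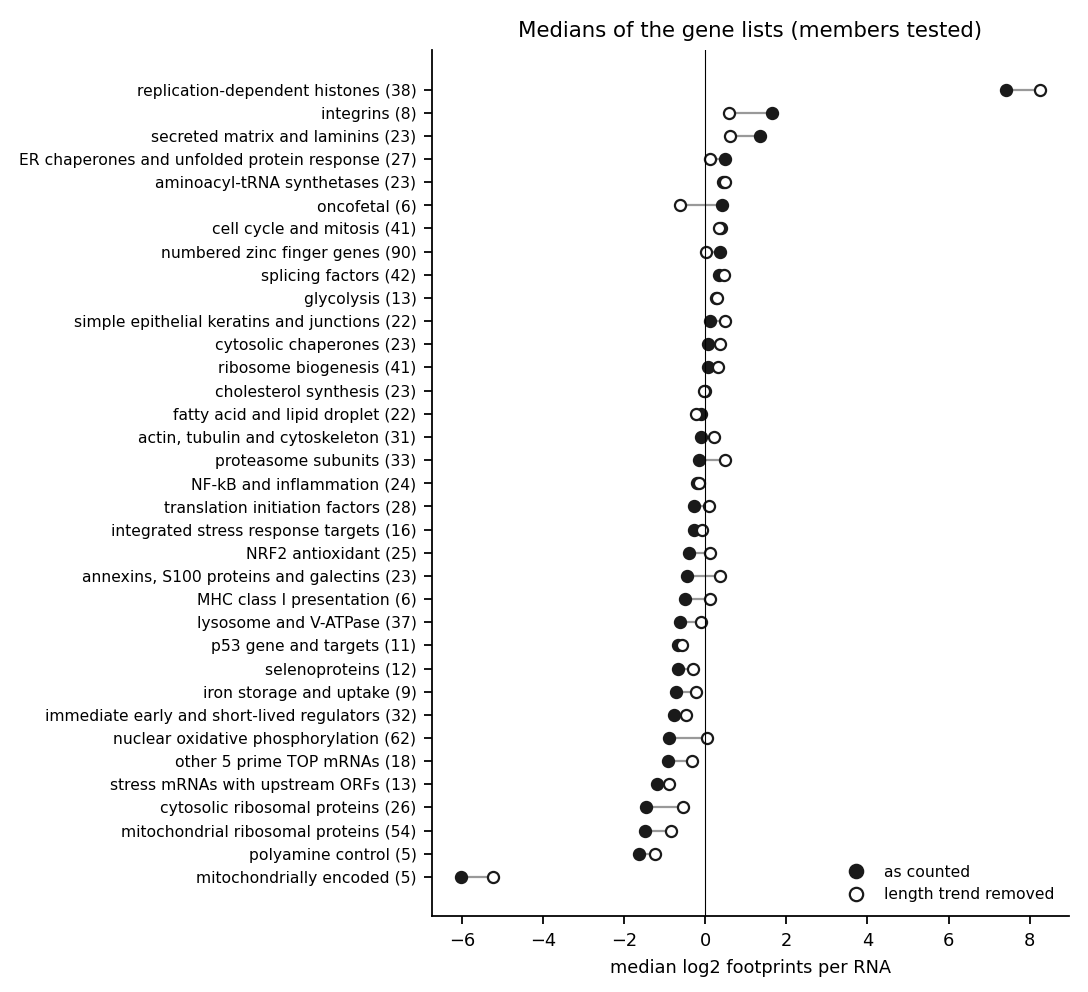
Median log2 footprints per RNA of each gene list with 5 or more members tested (number in brackets), as counted (filled) and with the transcript length trend removed (open). Histones move from 7.41 to 8.25 and mitochondrially encoded genes from -6.02 to -5.24, and oxidative phosphorylation moves from -0.90 to 0.05.

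Iron genes fell on opposite sides. Ferritin mRNAs carry a hairpin near their start that iron regulatory proteins bind to block initiation, and the transferrin receptor mRNA carries such hairpins after its coding sequence, where binding protects it from decay. Ftl1, the ferritin light chain gene (chr7:45457944-45459886), had 357, 327, 364 and 305 CPM of footprints against 6820, 6790, 7070 and 6390 CPM of RNA, a log2 ratio of -4.32 ± 0.16 (edgeR adjusted p = 6.15e-07). Fth1, the heavy chain gene (chr19:9980600-9985111), had 267, 250, 338 and 316 CPM against 3220, 3550, 4420 and 4130 CPM (-3.71 ± 0.19). The values of a gene lay close together in each assay, and the sets gave -4.30 and -4.31 for Ftl1 and -3.69 and -3.69 for Fth1. Tfrc, the transferrin receptor gene (chr16:32608896-32632794), had 115, 136, 275 and 268 CPM of footprints against 25.4, 23.2, 52.9 and 39.2 CPM of RNA (2.50 ± 0.38). After removal of the length trend the 3 genes stood at -3.36, -2.73 and 1.35 and kept their calls. Ireb2, an iron regulatory protein gene, stood at 1.34 ± 0.15 and at -0.24 with the trend removed. Over the list 2 of 9 were high (22.2%, against 24.5% of all genes) and 3 low (33.3%, against 22.6%).

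Most genes of polyamine control were low, 4 of the 5 tested (80.0%, against 22.6% of all genes). With the trend removed 4 of 5 were low (80.0%, against 19.4%). Srm, spermidine synthase, had 6.59, 6.90, 10.6 and 16.1 CPM of footprints against 127, 120, 269 and 258 CPM of RNA (-4.24 ± 0.41). Oaz1, the antizyme whose reading needs a frameshift, had 293, 269, 325 and 321 CPM against 699, 680, 988 and 1010 CPM (-1.48 ± 0.17). Its call was lost with the trend removed (-0.53) and with limma on TPM (-0.96). Smox, spermine oxidase, stood at -1.62 ± 0.39 and Dhps, which uses spermidine to modify eIF5A, at -1.91 ± 0.25. Azin1, the antizyme inhibitor, had a log2 ratio of -0.71 ± 0.16, short of the 2-fold mark, and of -1.49, low, with the trend removed. Of 12 selenoprotein genes, which read a UGA codon as selenocysteine, 4 were low (33.3%, against 22.6% of all genes) and 1 high. With the trend removed 2 were low (16.7%, against 19.4% of all genes). Gpx1, glutathione peroxidase, had 198, 191, 262 and 269 CPM of footprints against 1110, 997, 1540 and 1420 CPM of RNA (-2.46 ± 0.20, -1.52 with the trend removed). An upstream ORF of 46 codons was listed for Gpx1 in tumour ORF lists 1 and 2, with 240 and 132 P-sites.

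Stress messages known for upstream ORFs were largely on the low side: 7 of 13 were low (53.8%, against 22.6% of all genes) and 2 high (15.4%). With the length trend removed 6 were low (46.2%, against 19.4%) and 0 high. Atf4, the transcription factor of the integrated stress response (chr15:80255184-80257545), had 111, 111, 244 and 243 CPM of footprints against 584, 636, 1380 and 1290 CPM of RNA. Both assays were higher in libraries 3 and 4, and the ratio was the same in each set, -2.44 and -2.44, with -2.46 ± 0.41 in all. An overlapping upstream ORF of 59 codons was listed for Atf4, with 378 P-sites in list 1 and 54 in list 2. Its relative Atf5 stood at -2.30 ± 0.23, Ppp1r15a, the stress-induced eIF2 phosphatase subunit, at -2.25 ± 0.20, Cebpb at -1.94 ± 0.12 and Bcl2l1, a survival factor gene, at -1.19 ± 0.14, or -0.88 and not called with the trend removed. Ppp1r15b, the constitutive phosphatase subunit, was high: 131, 133, 156 and 160 CPM of footprints stood against 50.3, 44.7, 33.7 and 31.4 CPM of RNA (1.85 ± 0.18), though with the trend removed it stood at 0.35 and was not called. The targets of the same response, such as Asns, asparagine synthetase, were near balance: 1 of 16 was low and 0 high, and Asns stood at -0.33 ± 0.36.

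The tumour ORF lists named an upstream or overlapping upstream ORF for 195 tested genes. Of these 58 were low (29.7%) and 36 high (18.5%), with a median of -0.39. Of the other 6789 genes 22.4% were low and 24.7% high, with a median of -0.04. With the length trend removed 47 of the 195 were low and 11 high, and 1309 of the other 6789 were low and 649 high. The shares of all genes were then 19.4% low and 9.45% high. The genes with a listed upstream ORF had more footprints, with a median of 773 counts against 430, so the groups differ in depth, and the part of depth in the difference was not tested. In the unfolded protein response and ER chaperone list 7 of 27 genes were high (25.9%) and 6 low (22.2%), near the shares of all genes. Hsp90b1, a chaperone of the ER, had 1390, 1600, 2610 and 2740 CPM of footprints against 765, 766, 968 and 1060 CPM of RNA (1.23 ± 0.25). Hspa5, the main ER chaperone gene, stood at 0.91 ± 0.26, short of 2-fold, and passed it without footprint library 1 (1.03) or 2 (1.02) or RNA library 4 (1.02) and with the length trend removed (1.09). Xbp1, whose mRNA is spliced under ER stress, stood at -1.32 ± 0.12 (-0.85 and not called with the trend removed) and Manf, a secreted ER factor gene, at -2.30 ± 0.36.

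Most matrix and integrin messages were high as counted. Of 23 genes for secreted matrix 15 were high (65.2%) and 2 low (8.7%), with a median of 1.35. Of 8 integrin genes 6 were high and 1 low, with a median of 1.66. Of all genes 24.5% were high and 22.6% low. Fn1, fibronectin, had 2460, 2370, 1300 and 1270 CPM of footprints against 322, 299, 155 and 146 CPM of RNA (3.01 ± 0.37). Both assays were lower in libraries 3 and 4, and the ratios of the sets were 2.98 and 3.12. Thbs1, thrombospondin, had 1350, 1320, 836 and 905 CPM against 139, 120, 65.7 and 69.9 CPM (3.48 ± 0.31). Lamc1, a laminin chain gene, stood at 3.31 ± 0.23. Col4a1, a basement membrane collagen, stood at 2.29 ± 0.28 and Hspg2, perlecan, at 3.81 ± 0.31. Itgav had 843, 955, 941 and 915 CPM against 65.1, 65.1, 70.7 and 53.8 CPM (3.84 ± 0.14), and Itga2, a collagen receptor chain, stood at 2.99 ± 0.24. Bgn, the short proteoglycan biglycan, was low at -1.97 ± 0.37, and Spp1, osteopontin, was not called at 0.06 ± 0.15.

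These lists hold long transcripts, with medians of 4056 and 4834 bases against 2920 over all genes. With the trend removed 5 of 23 matrix genes were high (21.7%) and 1 low (4.35%), and 2 of 8 integrin genes were high and 0 low. Of all genes 9.45% were then high and 19.4% low. Fn1 (2.34), Thbs1 (1.86), Itgav (1.73) and Lamc1 (1.0) stayed high, and Itga2 (0.86), Col4a1 (0.35) and Hspg2 (-0.08) were not called. Of 31 cytoskeletal genes 9 were high (29.0%, against 24.5% of all genes) and 5 low (16.1%, against 22.6%). With the trend removed 5 were high (16.1%, against 9.45%) and 1 low (3.23%, against 19.4%). Myh9, the heavy chain of nonmuscle myosin (chr15:77760585-77842175), had 5890, 4690, 4050 and 4000 CPM of footprints against 359, 325, 139 and 162 CPM of RNA (4.24 ± 0.37, 1.99 with the trend removed), and Msn, moesin, stood at 2.67 ± 0.28 and 2.10. Flna, filamin, went from 2.92 ± 0.57 to 0.41, not called. Actb, actin, was not called: 7550, 6230, 8720 and 8770 CPM stood against 5110, 5990, 7430 and 7570 CPM (0.26 ± 0.20). Pfn1, the short actin-binding profilin, stood at -1.59 ± 0.23, and at -0.60 with the trend removed, not called. Of the simple keratins Krt8 stood at 0.20 ± 0.14 and Krt18 at -0.85 ± 0.15, neither called, while Cdh1, E-cadherin, was high at 2.07 ± 0.15 and the tight junction gene Cldn3 low at -1.92 ± 0.16.

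Of 41 cell cycle genes 12 were high (29.3%) and 11 low (26.8%), near the 24.5% and 22.6% of all genes, and 3 were high and 6 low with the trend removed. Mki67 had 446, 483, 438 and 433 CPM of footprints against 99.6, 113, 68.6 and 65.0 CPM of RNA (2.38 ± 0.20, and -0.65 with the trend removed, not called). Top2a, topoisomerase, stood at 2.03 ± 0.24, the ubiquitin-conjugating enzyme gene Ube2c at -2.28 ± 0.27 and Cdk4 at -1.33 ± 0.13. With the trend removed Ube2c stayed low (-1.31), and Top2a (0.71) and Cdk4 (-0.82) were not called. Myc was balanced, with 455, 435, 527 and 517 CPM against 436, 480, 433 and 404 CPM (0.14 ± 0.12, edgeR adjusted p = 0.318). Immediate early and short-lived regulators were low in 13 of 32 (40.6%, against 22.6% of all genes) and high in 2 (6.25%). Ier3 had 72.5, 60.4, 86.1 and 83.0 CPM of footprints against 562, 568, 649 and 666 CPM of RNA (-3.02 ± 0.15), though its P-sites were many for these footprints, and Zfp36, which encodes a protein that promotes mRNA decay, stood at -2.98 ± 0.31. Dusp4, a phosphatase gene of the MAP kinase pathway, was high at 1.62 ± 0.28. With the trend removed 9 of the 32 were low (28.1%, against 19.4% of all genes) and 3 high (9.38%, against 9.45%).

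Of 11 tested genes of the p53 list 5 were low (45.5%) and 0 high, both as counted and with the trend removed. Of all genes 22.6% were low as counted and 19.4% with the trend removed. Bax, the pore-forming death factor gene, had 40.1, 26.5, 26.8 and 41.5 CPM of footprints against 194, 167, 260 and 257 CPM of RNA (-2.71 ± 0.23), and Gadd45a stood at -2.70 ± 0.21. The oncofetal chromatin gene Hmga1 had 231, 203, 135 and 151 CPM against 1060, 1150, 1680 and 1520 CPM (-2.91 ± 0.24). Hmga2 had 134, 137, 144 and 164 CPM against 249, 262, 276 and 252 CPM, a log2 ratio of -0.84 ± 0.11, short of 2-fold, and of -1.33, low, with the trend removed. Igf2bp2, an RNA-binding protein gene, stood at 0.30 ± 0.12 and was not called. The gut marker Lgals4 was low at -1.01 ± 0.31, but not without footprint library 1 (-0.83) or 2 (-0.94) or RNA library 3 (-0.83) or 4 (-0.92), and not with the trend removed (-0.17).

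The metabolic lists held both high and low genes, set here against 24.5% high and 22.6% low over all genes. Among 13 glycolytic genes 3 were high (23.1%) and 4 low (30.8%): Hk2, hexokinase, had 457, 416, 460 and 456 CPM of footprints against 73.0, 72.7, 44.2 and 47.0 CPM of RNA (2.92 ± 0.20), while Eno1, enolase, had 206, 167, 370 and 342 CPM against 1600, 1560, 2110 and 2160 CPM (-2.77 ± 0.29) and Tpi1 stood at -2.16 ± 0.23. These 3 kept their calls with the trend removed, at 1.45, -2.24 and -1.42. In cholesterol synthesis and uptake 5 of 23 were high (21.7%) and 3 low (13%). Insig1, the ER anchor gene of the pathway, was low at -1.74 ± 0.17. Of 22 fatty acid and lipid droplet genes 7 were high (31.8%) and 5 low (22.7%). With the trend removed 1 was high (4.55%) and 6 low (27.3%), against 9.45% and 19.4% of all genes. Among the high ones, Scd2, a fatty acid desaturase gene, stood at 2.32 ± 0.13 and Fasn, fatty acid synthase, at 2.76 ± 0.22. With the trend removed neither was called, at 0.88 and 0.22. Among the low ones Pnpla2 stood at -1.86 ± 0.11, and at -1.34, still low, with the trend removed. Of 6 MHC class I presentation genes 2 were low (33.3%) and 1 high (16.7%), and 2 were low and 0 high with the trend removed. B2m, the light chain of MHC class I, had 146, 173, 144 and 127 CPM of footprints against 863, 972, 597 and 495 CPM of RNA (-2.31 ± 0.23). Tapbp, which loads peptides on it, stood at -2.20 ± 0.30. The high gene, Erap1, stood at 1.85 ± 0.17, and at 0.32, not called, with the trend removed.

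The ratios of the library sets ran close together over most genes. Their Spearman correlation was 0.94 over 6954 genes, which share transcript models and lengths. The sets differed by more than 2 on the log2 scale in 195 genes, of which 89 had a mean of at least 20 counts in each assay. The median of the cytosolic ribosomal proteins was -1.88 in libraries 1 and 2 and -1.14 in libraries 3 and 4, and the 5 mitochondrially encoded genes were all lower in libraries 3 and 4.

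**Figure D4:**
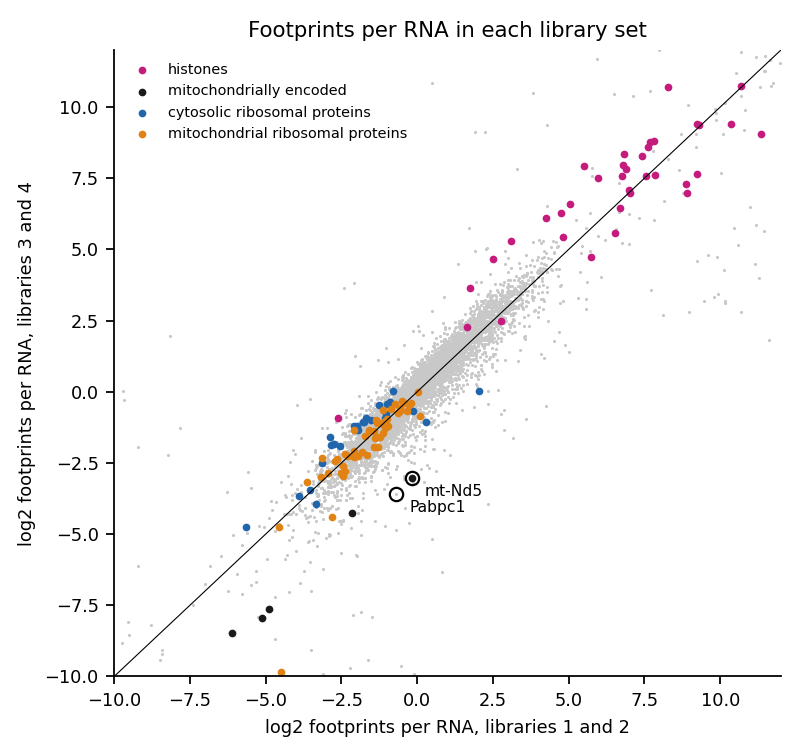
Each point is 1 gene, with its log2 footprints per RNA in libraries 1 and 2 on the horizontal axis and in libraries 3 and 4 on the vertical axis; the line marks equal values and colours mark 4 gene lists, and 40 genes beyond the axes are not drawn. The genes mt-Nd5 (-0.18 and -3.04) and Pabpc1 (-0.70 and -3.61) are circled as genes that differ between the sets.

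Most genes have several listed transcripts, and the counting program divides reads among them. When each gene was represented only by its listed transcript with the most RNA, 1486 genes were high and 1917 low. Several of the genes described then changed sides. Mettl26 stood at -12.32, Nars at -14.47, Eif4g1 at -6.70, Flna at -4.80, Fn1 at -4.50, Ndufs1 at -2.02 and Cdh1 at -0.82. For these genes the RNA and the footprints had been assigned in large part to different transcripts, and their high ratio holds for the sum over transcripts only. Ftl1 (-4.18), Fth1 (-3.92), Atf4 (-2.28), Rplp0 (-3.19), Mt2 (-5.08), Myh9 (4.71), Thbs1 (3.95), Itgav (4.75), Hist1h4d (9.82) and Hist2h2bb (9.86) kept their calls.

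Footprint counts here cover whole transcripts, upstream ORFs included. Footprints come mostly from the coding part of a message, and RNA reads from all of it. A further alternative therefore scaled each gene by its coding share. Under it 12 of the genes described lost their calls without a change of sign: Hist1h2bc (-0.84), Eif4ebp1 (-0.06), Nars (0.85), Eprs (0.93), Dars (0.90), Bcl2l1 (-0.26), Xbp1 (-0.77), Hsp90b1 (0.61), Insig1 (-0.80), Srsf3 (-0.18), Prdx1 (-0.91) and Ndufs1 (0.54). Pnpla2 (0.56) lost its low call too and changed sign. Krt18 became low (-1.52).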

How the data were processed

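Ribosome footprints and RNA were measured in LUAD organoids, 4 libraries each. The authors deposited kallisto tables of estimated counts and TPM per transcript, per the file headers and the submitters' processing notes, which give no kallisto version. Read trimming and filtering are not stated in these sources. The authors also deposited ORF lists on mm10 with P-site counts per ORF. Of 22871 transcripts in those lists 22509 (98.4%) were in the 118489-row count tables. Their estimated counts were summed to 7261 genes by the lists' gene names and rounded. edgeR 4.0.16 (TMM, filterByExpr, robust quasi-likelihood, R 4.3.3) was fitted on 8 libraries with the assay as the term. P-values were adjusted over all 6984 genes by the Benjamini-Hochberg method, and standard errors are the log2 ratio over the root of F. CPM values are after TMM. The script was tested on simulated data.

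Deviations of same-numbered footprint and RNA libraries from their group means correlated at 0.461 to 0.532 over 6803 genes. The numbers were taken to pair the libraries in the replicate block only. The main fit had no such term, so its standard errors also hold level differences that both assays share between sets. With a term for library set 5668 genes had an adjusted p below 0.05 at any fold, against 4736 in the main fit. Libraries of the same set with different numbers gave 0.439 to 0.527 and those of different sets -0.541 to -0.434, so pair and set cannot be told apart. The length trend was a lowess on log2 transcript length (span 0.5). Transcript length is that of the listed transcript with the most RNA. Replicate libraries differed beyond sampling noise, with a mean chi-square per gene of at least 5.40. Alternatives tried were other scalings, DESeq2 1.42.0, limma 3.58.1 on log2(TPM + 1), no filter, other transcript choices, offsets for coding share, the replicate block and leaving out libraries. Coordinates and start windows are RefSeq GRCm38.p6 (mm10), matched by symbol for 7099 genes.

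Genes named are the 15 called genes furthest from 0 in each direction (at least 20 mean counts in both assays, 100 in the higher, ranges not overlapping, predicted genes left out), up to 3 called genes per list and direction with the most footprints, and a fixed set. Some further genes, and those headed by Tmem38b outside the histones, were chosen after their values were seen. The members, lists and genes were chosen with earlier results of these data known. Fixed genes with no listed transcript are not analysed here, and a few genes that the rule selects are not reported here.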

Additional observations from a re-analysis of the deposited data

Results flagged for a closer look

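Samples far from the other 3 of their group by Dixon's test at the 95% level were looked for in the library totals and in the CPM of each gene described, 268 groups in all, and 10 were found. Chance flags about 1 group in 20. Footprint library 1 had the lowest total, 4803129 estimated counts. Among RNA libraries, Trp53 stood apart in library 4 (4.26 CPM against 0 in the others), Hist2h2bb in library 3 (2.65 CPM), Hist1h4d in library 2 (the lowest, 0.224 CPM), Rplp0 in library 3 (13100 CPM), Hnrnpu in library 4 (372 CPM) and Dars in library 3 (182 CPM). Among footprint libraries, Chchd10 stood apart in library 1 (6.32 CPM), Hk2 in library 2 (the lowest, 416 CPM) and Mrps21 in library 4 (114 CPM). Without each of these libraries Hist2h2bb, Hist1h4d, Rplp0, Hnrnpu, Dars, Chchd10, Hk2 and Mrps21 kept their calls.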

How the results depend on the processing

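The number of high genes ran from 1486 to 2030 over the other alternatives, and with the length trend removed it was 660. The number of low genes ran from 1170 (limma on TPM) to 1917. Leaving out 1 library at a time gave 1643 to 1756 high and 1532 to 1600 low genes. With the replicate number as a block 1744 genes were high and 1624 low, and of the genes named it ended the calls of mt-Nd5 and Nars, turned Trp53 (2.64) and changed no other call. Trp53 stood at -1.23 without the first replicate of both assays and also turned with limma (0.10), without footprint library 2 (0.16), with the length trend removed (0.38) and with a term for library set (0.83). With the length trend removed Aars (-0.24), Ireb2 (-0.24), Mki67 (-0.65), Mrc1 (-0.73), Asns (0.22) and Hspg2 (-0.08) changed sign. With 1 transcript per gene Mettl26 (-12.32), Eef2 (0.30), Eif4g1 (-6.70), Nars (-14.47), Flna (-4.80), Actb (-3.20), Cdh1 (-0.82), Fn1 (-4.50), Myc (-7.37), Igf2bp2 (-11.82), Ndufs1 (-2.02), Asns (0.13) and Atp5j2 (-1.56) did. With offsets for coding share Azin1 (0.08), Krt8 (-0.24), Spp1 (-0.12), Myc (-0.29), Hmga2 (1.81, past the threshold), H1f0 (0.28) and Pnpla2 (0.56) did. Eif3a turned with the transcripts of the tumour ORF lists only (-0.63), Atp5j2 with limma (-0.13), Spp1 with TMM over all transcripts (-0.00), and Spp1 (-0.15) and Myc (-0.02) in libraries 1 and 2. Footprint depth limits genes at a few CPM, such as Ypel3 and Trp53. The causes of these changes were not tested. The settings on length, library sets and both first replicates were chosen after seeing the data.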

Other observations

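Of 42 splicing factor genes 10 were high (23.8%, against 24.5% of all genes) and 5 low (11.9%, against 22.6%), and 9 were high (21.4%, against 9.45%) and 4 low with the length trend removed: Hnrnpu had 824, 854, 1170 and 1230 CPM of footprints against 301, 312, 301 and 372 CPM of RNA (log2 ratio 1.66 ± 0.18), while the SR protein genes Srsf2 and Srsf3 stood at -1.88 ± 0.21 and -2.11 ± 0.33. Of 37 lysosomal genes 13 were low (35.1%, against 22.6% of all genes) and 3 high (8.11%). With the trend removed 8 were low (21.6%, against 19.4%) and 3 high. The protease gene Ctsd had 279, 301, 257 and 217 CPM against 1270, 1250, 1020 and 977 CPM (-2.10 ± 0.16). Of 24 genes of NF-kB and inflammation 9 were low (37.5%) and 1 high (4.17%), and 5 were low (20.8%) and 1 high with the trend removed. Rela, a subunit of the factor, stood at -1.83 ± 0.16. Of 25 antioxidant genes of the NRF2 pathway 5 were low (20%) and 0 high, and 2 were low (8.0%) and 1 high with the trend removed. The peroxiredoxin gene Prdx1 stood at -1.99 ± 0.26.

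The counts of some lists shifted with the length trend removed, which took the share of all genes from 24.5% to 9.45% high and from 22.6% to 19.4% low. Of 23 annexin, S100 and galectin genes 7 were low and 0 high as counted, and 1 was low and 3 high with the trend removed, although S100a11 stayed low (536, 913, 1460 and 1230 CPM of footprints against 6460, 7840, 9030 and 7260 CPM of RNA, -2.88 ± 0.31 and -1.79). Of 33 proteasome genes 4 were low and 1 high as counted, and 1 was low and 4 high with the trend removed. Of 90 numbered zinc finger genes 36 were high (40.0%) and 10 low (11.1%) as counted, and 12 were high (13.3%) and 14 low (15.6%) with the trend removed, above all genes in the high share and below them in the low share both times. The high proteasome gene was Psme1, whose only listed transcript had 4428 footprint counts and 0 RNA counts over the 4 libraries of each assay, at least 3500-fold higher footprints than RNA when the RNA is set to 3 counts over the group. Its other transcripts were not used here.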
